A study of Mus musculus with 3 samples.

Results

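The mir-1948 hairpin of the mouse gives rise to a pair of mature microRNAs, miR-1948-3p and miR-1948-5p, which were followed here through ischemia and reperfusion of the liver. Listed as mmu-miR-1948-3p and mmu-miR-1948-5p, they make up 2 of the 1908 mature microRNAs of the count files and were found by name. The pair was chosen by the levels of the 3p arm, which were flat from Sham to WI and more than 4-fold higher in IR, so the values of these comparisons describe the choice and carry no test. The livers were taken from male mice of the inbred strain C57BL/6J, aged 8 to 10 weeks. The Sham library stands for mice that had a laparotomy without occlusion of vessels. The WI library stands for mice in which the vessels and bile duct of the left and median lobes were clamped, which is warm ischemia. The IR library stands for mice in which the same clamp was removed and blood flowed back, which is ischemia followed by reperfusion. All mice were fasted and anesthetised. Each group had 1 library, and whether it pooled RNA of several mice was not stated, so no difference below has a replicate check.

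A microRNA is cut from a hairpin in a longer transcript, first in the nucleus by Drosha and then in the cytoplasm by Dicer. The duplex left over has a 5p and a 3p strand. Usually 1 strand is kept in an Argonaute protein, where it pairs with messenger RNAs and lowers their output, and the other strand is lost more quickly. Both arms of a hairpin come from the same transcript, so reads of the second arm are a further readout of it within the same library.

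The hairpin lies on the plus strand of chromosome 18, from 12873320 to 12873404 in the NCBIM37 (mm9) assembly, and spans 85 bases. It sits inside Ttc39c, a protein-coding gene of the tetratricopeptide repeat family on the same strand (12758435 to 12895559). In both annotated Ttc39c transcripts that span the hairpin, it is in the intron between exon 6 and the next exon. That intron is 21890 bases long, and the hairpin begins 16751 bases after the previous exon and ends 5054 bases before the next one. No exon overlaps it, and 0 other annotated microRNA hairpins lie within 50 kb. It is therefore a lone intronic hairpin and not part of a cluster.

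Read counts of mature microRNAs were scaled with the trimmed mean of M-values (TMM) method of edgeR and are given as reads per 1000000 (CPM). The WI library was the deepest with 5064014 microRNA reads, against 3844133 for Sham and 3784539 for IR. At least 1 read was found for 851 microRNAs, and 317 had at least 50 over the 3 libraries. Intervals below are 95% intervals of counting error only, because reads were not marked by molecule and variation between mice was not measured. In bulk liver, a lower number of cells of a type and less RNA per cell cannot be told apart.

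MiR-1948-3p was the more abundant arm in every library. It had 419 reads in the Sham library, 523 in the WI library and 1774 in the IR library. These correspond to 106 CPM (95.9 to 116), 108 CPM (98.5 to 117) and 464 CPM, the last with an interval that began at 443 CPM. The Sham and WI intervals overlapped almost fully, whereas the IR interval lay far above both. In rank by reads, it moved from position 124 of 653 detected microRNAs in Sham and 123 of 682 in WI to 73 of 679 in IR. It accounted for 1 in 9175 microRNA reads in Sham and 1 in 2133 in IR.

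MiR-1948-5p, the minor arm, had 78, 150 and 436 reads in the same order. Its levels were 19.7 CPM (15.6 to 24.6), 30.8 CPM (26.1 to 36.2) and 114 CPM (104 to 125). With TMM scaling none of the 3 intervals overlapped, although those of Sham and WI nearly met. The levels in these 3 libraries ran from Sham over WI to IR. Its rank by reads was 210 in Sham, then 189 after ischemia and 125 after reperfusion. The level of the minor arm in IR thus came close to that of the major arm in Sham and WI. All counts of both arms were far above 3 reads, the smallest count taken as a signal, which equals 0.785 CPM in IR.

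**Figure D1:**
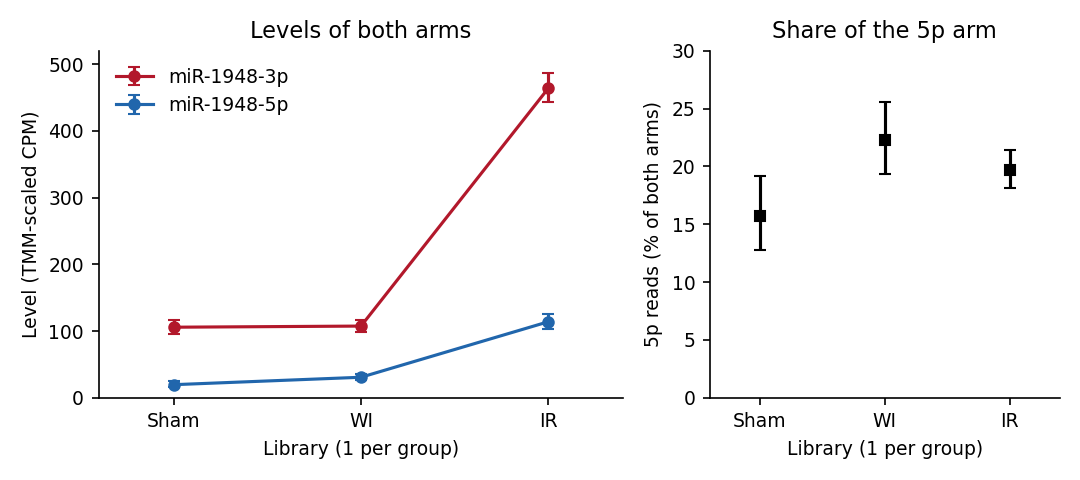
Left, levels of miR-1948-3p (red) and miR-1948-5p (blue) in TMM-scaled CPM in the Sham, WI and IR libraries, with 95% counting intervals. Right, reads of the 5p arm as a percentage of the reads of both arms, with 95% Wilson intervals. The 3p arm stays near 106 to 108 CPM before it reaches 464 CPM in IR, and the 5p share is lowest in Sham, at 15.7%.

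Warm ischemia alone was compared with Sham to ask what happens before blood returns. The 3p arm had a fold change of 1.02 (0.892 to 1.16) in WI. The 5p arm had a fold change of 1.57 (1.18 to 2.09), a log2 fold change of 0.64. The flat course of the major arm was thus not shared by the minor arm. The sign of the 3p value depended on the scaling, with folds from 0.948 with library totals to 1.13 with totals of genome-aligned reads. The 5p fold lay between 1.46 and 1.74 over the same scalings.

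The study selected microRNAs by a fold change above 1.5 and p under 0.01 in Fisher's exact test, here run on the reads of 2 libraries. By these criteria, 11 of 782 microRNAs (1.41%) were called higher in WI than in Sham. MiR-1948-5p was 1 of them and miR-1948-3p was not. The 5p fold no longer reached 1.5 with library totals (1.46), nor with totals that left out the 10 most abundant microRNAs (1.48). Such calls compare 2 libraries and not 2 conditions. The study listed more differentially expressed microRNAs than were called here, both for WI and for IR against Sham. Why the counts differ was not tested. The split into higher and lower calls in WI also moved with the scaling, from 11 and 4 with TMM to 7 and 10 with library totals. When genome-aligned reads set the scale it was 23 and 2.

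Reperfusion was then compared with ischemia, with IR livers taken later after surgery than WI livers. From WI to IR the 3p arm differed 4.32-fold (3.91 to 4.77) and the 5p arm 3.70-fold (3.06 to 4.48). In log2 fold change these were 2.11 and 1.88. The intervals of both arms overlapped, and with both arms added the reads went from 673 to 2210, a fold of 4.18 (3.83 to 4.56). Among the 317 microRNAs with at least 50 reads, the 3p arm had the 5th and the 5p arm the 6th highest fold. Higher calls in IR than in WI numbered 49 of 789 (6.21%), and both arms were among them. The choice of the pair used the 3p arm in this contrast, so nothing is read from its call.

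From Sham to IR the order of the arms was the opposite, with a fold of 4.38 (3.94 to 4.89) for the 3p arm and 5.79 (4.54 to 7.46) for the 5p arm. The log2 fold changes were 2.13 and 2.53. They ranked 8th and 6th among the 317 microRNAs. Of 774 microRNAs tested, 44 (5.68%) were called higher in IR, again both arms included. The 3p arm gained 358 CPM from Sham to IR, the 15th largest gain in level of all microRNAs. The 5p arm gained 94.3 CPM, the 33rd largest. IR livers were taken later after surgery than Sham or WI livers. In this comparison and in IR against WI, reperfusion and time since surgery therefore cannot be told apart.

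The size of the difference depended on what the reads were scaled to. An alternative scale was the number of genome-aligned reads, taken from the sequencing statistics of the study. It moved the median log2 fold change of microRNAs with at least 50 reads to -0.36 from WI to IR, -0.16 from Sham to IR and 0.20 from Sham to WI, whereas TMM gave -0.04, 0.01 and 0.05. The 3p arm was then 3.45-fold higher in IR than in WI and 3.90-fold higher than in Sham, so it no longer passed 4-fold. The 5p arm was then 2.95-fold and 5.15-fold higher. With this scaling, calls in IR against WI turned from 49 higher and 24 lower to 38 higher and 73 lower, and those in IR against Sham from 44 and 11 to 35 and 28. Both arms stayed on the higher side of IR with each of the 5 scalings run.

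**Figure D2:**
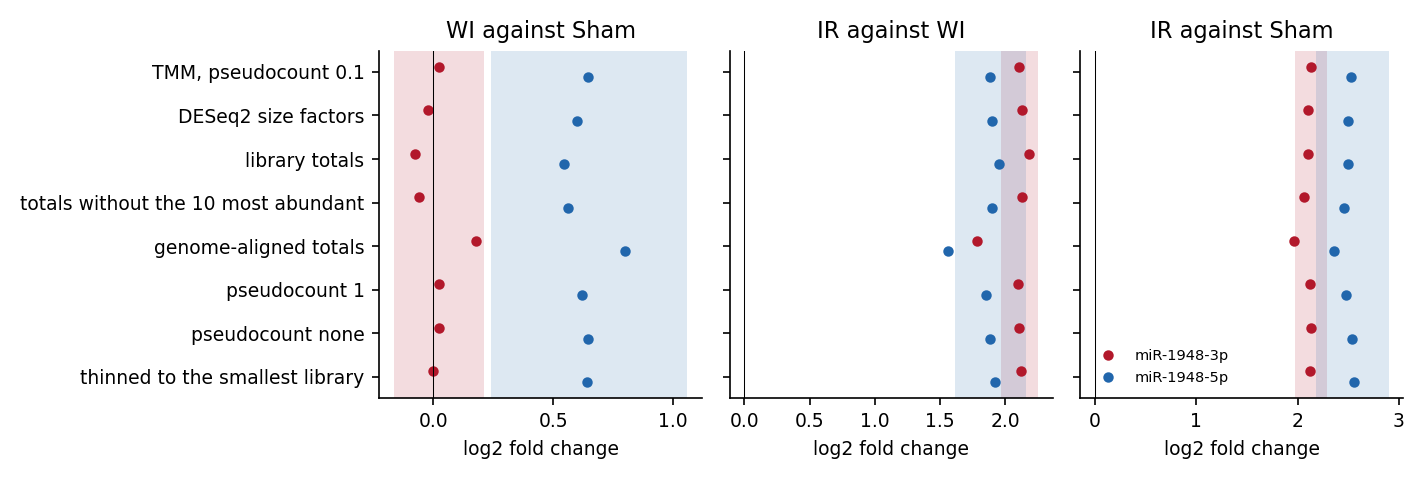
Log2 fold changes of miR-1948-3p (red) and miR-1948-5p (blue) in the 3 comparisons under the reported setting (top line) and 7 alternatives. Shaded bands are the 95% counting intervals of the reported values. Genome-aligned totals give the lowest values from WI to IR, 1.78 for the 3p arm and 1.56 for the 5p arm, and the points of both arms stay right of 0 in the 2 comparisons with IR.

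Where the limit of 4-fold fell among the microRNAs was then examined. In IR against Sham, 8 of the 317 microRNAs with at least 50 reads (2.52%) were past it, and miR-1948-3p was the one closest to the limit. Just inside with it was miR-6240, which had 3291, 2768 and 14117 reads in Sham, WI and IR, a fold of 4.44 in IR against Sham. Just outside were miR-5126, with 160, 201 and 548 reads and a fold of 3.55, and miR-690, with 86, 140 and 226 reads and a fold of 2.72. A wide gap in fold therefore separated the 3p arm from miR-690, with miR-5126 alone in between.

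Of the 317 microRNAs with at least 50 reads, 25 have no arm in their name, which means that only 1 product of the hairpin is registered. Of the 8 microRNAs past 4-fold, 5 were of this kind. The other 3 were the arms of miR-1948 and miR-133a-3p, a microRNA of striated muscle. In IR against both other libraries, 5 microRNAs were past 4-fold, and miR-1948-3p was the only one of these named with an arm. The other 4 were miR-2137, miR-5121, miR-1195 and miR-6240. In Sham and WI, miR-2137 had 18 and 22 reads, miR-5121 had 10 and 20, and miR-1195 had 14 and 12. These rare microRNAs passed the read limit, set over all libraries, only through their reads in IR. How many microRNAs were past 4-fold, and how many of these had no arm in their name, therefore depended partly on this limit. MiR-1948-3p reached 464 CPM in IR, more than miR-2137 (292 CPM), miR-1195 (34.8 CPM) and miR-5121 (28.0 CPM) and less than miR-6240 (3692 CPM).

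**Figure D3:**
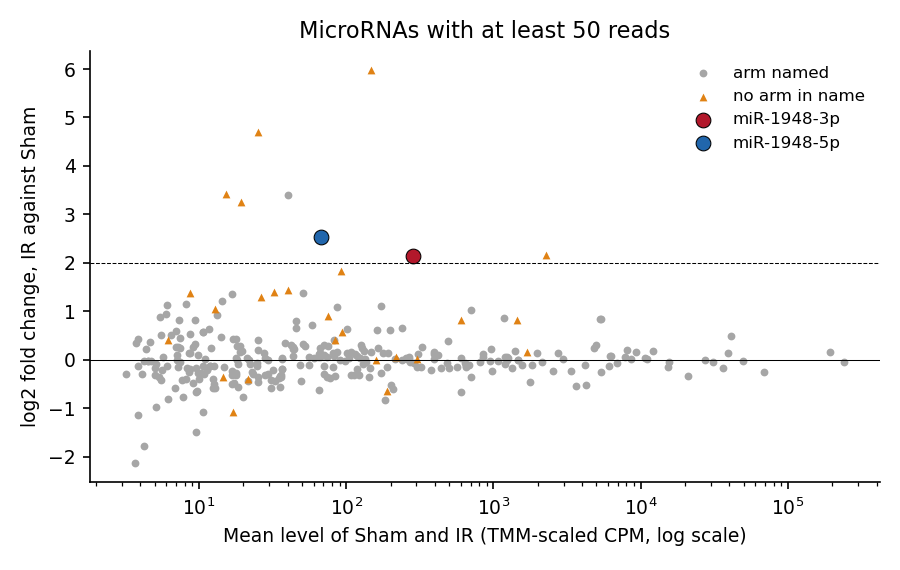
Log2 fold change in IR against Sham over the mean level of both libraries (TMM-scaled CPM, log axis) for the 317 microRNAs with at least 50 reads. Orange triangles have no arm in their name, grey points do, and the dashed line marks 4-fold. MiR-1948-3p (red, 2.13) and miR-1948-5p (blue, 2.53) lie above the line with 6 other microRNAs, 5 of them triangles. MiR-6240 (2.15) is also close to the line, and the rest of the 6 lie at 3.26 or higher.

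The balance of the arms does not depend on the scaling between libraries, since both are counted in the same library. Of the reads of both arms, the 5p arm took 15.7% in the Sham library (95% interval by Wilson's method 12.8 to 19.2). It took 22.3% after ischemia (19.3 to 25.6) and 19.7% after reperfusion (18.1 to 21.4). The Sham and WI intervals did not overlap, although their ends nearly met, and the IR interval overlapped both. The odds of a read being 5p were 1.54 times as high in WI as in Sham (1.13 to 2.11), 0.857 times as high in IR as in WI (0.692 to 1.06) and 1.32 times as high in IR as in Sham (1.01 to 1.74). Both intervals against Sham lay above 1, whereas that of IR against WI included 1.

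Other hairpins were used as the background for the arms. Of 747 hairpins with both arms listed, 104 had at least 20 reads of each arm over the 3 libraries. Over all reads, the minor arm of miR-1948 held 19.6% of its hairpin, and 30 of the 104 hairpins were more even. The median minor arm held 5.61%. The second strand of miR-1948 thus took a larger share than that of most hairpins.

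In WI against Sham, the log2 fold change of the 5p arm exceeded that of the 3p arm by 0.62. Of the 103 other hairpins, 92 (89.3%) had a smaller absolute difference between their arms, and the median was 0.24. In IR against WI the difference was -0.23, and 45 of 103 (43.7%) were smaller. In IR against Sham it was 0.40, and 68 (66.0%) were smaller, with miR-674 (0.37) and miR-362 (0.40) next to it. The arms of miR-1948 thus lay further apart than most in WI and near the middle in IR against WI. Many of these hairpins have fewer reads than miR-1948, and their differences hold more counting error.

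Among the 104 hairpins, miR-1948 had the largest log2 fold changes of both arms in IR against Sham. The 3p arm was chosen for its fold in IR, so its place describes the choice and carries no test. The only other hairpin with both arms above 1 on the log2 scale was miR-132, a microRNA transcribed in response to CREB. Its 5p arm had 9, 13 and 18 reads in Sham, WI and IR, and its 3p arm 112, 121 and 283, with log2 fold changes of 1.02 and 1.38 over Sham. Another 2 hairpins had 1 arm above 1. Across the 104 hairpins, Pearson's r between the log2 fold changes of the 5p and 3p arms was 0.36 in IR against Sham and 0.18 without miR-1948. Spearman's rho was 0.11. From WI to IR, Pearson's r was 0.41, 0.32 without miR-1948, and Spearman's rho was 0.33. Both arms of a point share a library, and hairpins are not independent replicates. The arms of other hairpins were thus only loosely related in IR against Sham and somewhat more so from WI to IR, where 70 of 103 moved in the same direction in both arms.

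**Figure D4:**
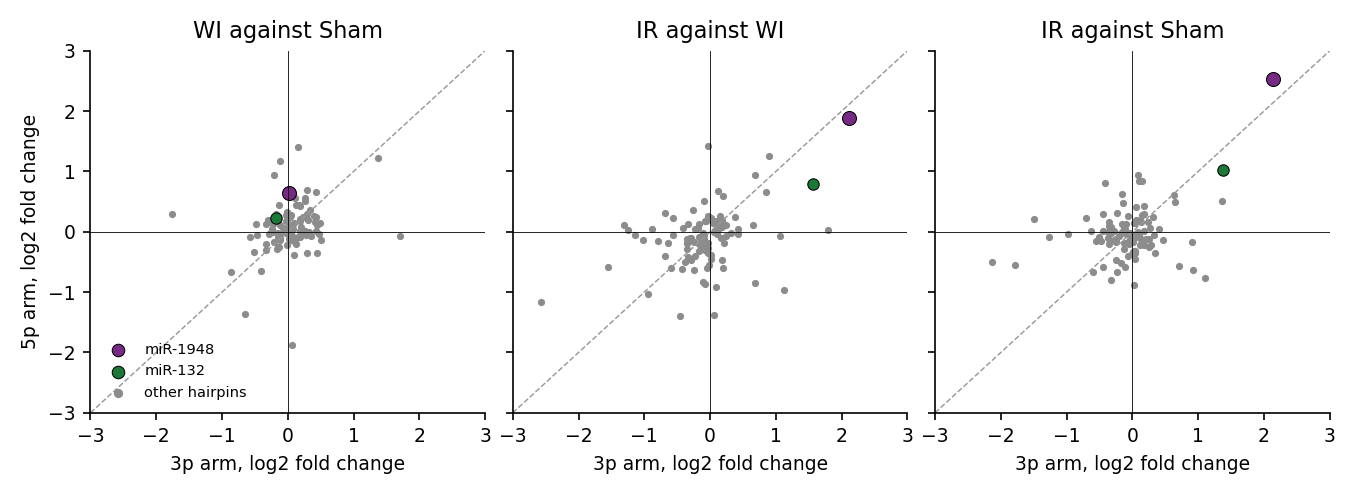
Log2 fold change of the 5p arm over that of the 3p arm in the 3 comparisons for 104 hairpins with at least 20 reads of each arm (grey), with miR-1948 in purple and miR-132 in green. The dashed line marks equal change. MiR-1948 lies near the line and far from 0 in both comparisons with IR, and in WI against Sham it lies above the line, at 0.64 for the 5p arm and 0.02 for the 3p arm.

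The microRNAs with the most similar course were then named by the distance between the pairs of log2 fold changes in WI and in IR against Sham, over the 3 libraries and the 317 microRNAs. The nearest to miR-1948-3p was miR-5126, at a distance of 0.31, followed by miR-6240 (0.57), miR-3470a (0.74), miR-132-3p (0.78) and miR-690 (0.79). MiR-1948-5p, also at 0.74, came just before miR-3470a. For miR-1948-5p, the 3p arm was the nearest of all microRNAs. Next came miR-5121 (0.89), miR-5126 (0.93), miR-690 (1.11), miR-434-3p (1.18) and miR-3963 (1.18). MiR-5121 had 10, 20 and 107 reads in Sham, WI and IR, and miR-3963 had 19, 31 and 48. The distances of such rare microRNAs hold more counting error, so their order is uncertain. The neighbours of the 5p arm were further away than those of the 3p arm. The distances use the log2 fold changes by which the 3p arm was chosen. Distances among other microRNAs were not computed, so there is no background for them.

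The 2 nearest to the 3p arm had different courses in WI. MiR-5126 had levels of 40.4, 41.3 and 143 CPM over Sham, WI and IR, flat before reperfusion as the 3p arm was. MiR-6240 had 831, 569 and 3692 CPM, with a lower level in WI than in Sham. MiR-132-3p had 28.3, 24.9 and 74.0 CPM. Each was highest in IR.

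**Figure D5:**
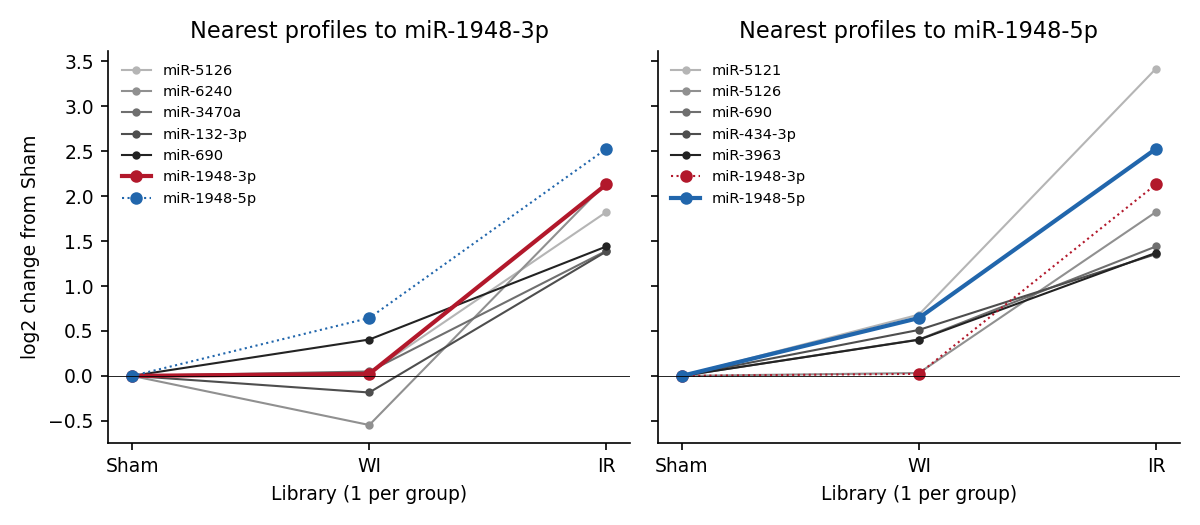
Log2 change from Sham over the 3 libraries for miR-1948-3p (left, red) and miR-1948-5p (right, blue) with the 5 microRNAs of nearest course in grey, the other arm dotted. In the left panel, miR-5126 runs closest to the 3p arm, and all lines rise from WI to IR.

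The mature sequences of 4 of the microRNAs nearest to the 3p arm are shown to compare their seeds with each other. The seed of miR-1948 was not analysed here. They are RefSeq entries of the GRCm38.p6 build, written 5′ to 3′ with the seed, bases 2 to 8, in capitals.
miR-5126: gCGGGCGGggccgggggcgggg
miR-6240: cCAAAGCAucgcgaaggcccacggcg
miR-132-3p: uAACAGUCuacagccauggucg
miR-690: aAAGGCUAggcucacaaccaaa
The 4 seeds differ from each other, and over all 7 neighbours of either arm with an entry there were 7 distinct seeds. MiR-5126 consists of G and C alone, and these bases made up 69.2% of miR-6240 and 45.5% of miR-690.

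MicroRNAs that mark cell types or injury were listed to show what else moved with miR-1948. Of the 6 hepatocyte microRNAs, 0 were called higher and 1 was called lower in IR against Sham, where 1.42% of all microRNAs tested were called lower. That was miR-802-5p, at 734 CPM (Sham), 945 CPM (WI) and 462 CPM (IR). The median log2 fold change of this list was -0.07, against 0.04 over all 774 microRNAs tested. The summed level of the list ran from 323260 CPM in IR to 370108 CPM in WI, and most of it came from miR-192-5p and miR-148a-3p. With genome-aligned totals, 3 of the 6 were called lower from WI to IR, where 73 of all 789 microRNAs tested were. The median of the list was then -0.54, against -0.36 over microRNAs with at least 50 reads. In IR against Sham, 1 was called lower with each of the 5 scalings, where 11 to 28 of all 774 microRNAs tested were. Each of the 6 had a log2 fold change below 0, from -0.67 to -0.04 with TMM. The median over microRNAs with at least 50 reads was 0.01 with TMM and from -0.01 to -0.16 with the other scalings.

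The 4 erythroid microRNAs, found in red blood cells, were all called higher in IR against Sham, where 5.68% of all microRNAs tested were, with log2 fold changes from 0.61 to 0.85. Their summed level was 5055 CPM (Sham), 4781 CPM (WI) and 9020 CPM (IR). The list includes both arms of miR-144, whose folds of 1.54 (3p) and 1.52 (5p) in IR against Sham were just past the limit of 1.5. With the other scalings, 2 or 3 of the 4 were called higher, where 35 to 42 of all 774 microRNAs tested were. Of the striated muscle list, 27, 115 and 280 reads of miR-133a-3p were counted over Sham, WI and IR, whereas miR-1a-3p, miR-133b-3p and miR-206-3p had at most 6 reads in any library. The part of red blood cells or muscle in the reads of miR-1948 was not tested.

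Of the 6 leukocyte microRNAs, 1 was called higher and 0 lower in IR against Sham, beside 5.68% and 1.42% of all microRNAs tested. It was miR-223-3p of neutrophils and other myeloid cells, at 110 CPM (Sham), 109 CPM (WI) and 236 CPM (IR). The summed level of the list was 3104, 3065 and 2812 CPM, and its median log2 fold change was -0.27. With genome-aligned totals, 1 was called higher and 1 lower, beside 35 and 28 of all 774 microRNAs tested. MiR-223-3p was thus flat and then higher, as miR-1948-3p was, with about the same level in Sham but a fold of 2.15 in IR. The other arm of its hairpin, miR-223-5p, went the other way. It had 39, 55 and 22 reads in Sham, WI and IR, a fold of 0.584 in IR against Sham, and was called lower in IR against WI. None of the 2 endothelial and 5 stromal microRNAs was called in any comparison with TMM. Over all microRNAs tested, 15 of 782 were called in WI against Sham, 73 of 789 in IR against WI and 55 of 774 in IR against Sham. With so few members listed, no call is close to these shares. The largest log2 fold change among the listed ones in IR against Sham was 0.21. With genome-aligned totals, 1 of each list was called lower from WI to IR, where 73 of all 789 microRNAs tested were.

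Of the 8 microRNAs known from hypoxia, inflammation or DNA damage, 3 were called higher and 0 lower in IR against Sham, where the shares over all microRNAs were 5.68% and 1.42%. They were miR-132-3p, miR-212-3p, which is made from the same locus as miR-132-3p, and miR-223-3p, which also stands in the leukocyte list. With genome-aligned totals, 2 were called higher and 1 lower, beside 35 and 28 of all 774 microRNAs tested. MiR-212-3p was at 9.09 CPM (Sham), 4.93 CPM (WI) and 17.3 CPM (IR). MiR-21a-5p, which rises in many kinds of injury, was at 34310 CPM (Sham), 40710 CPM (WI) and 48089 CPM (IR), a log2 fold change of 0.49 that was below the fold limit. The median of the list was 0.41. Each log2 fold change of this list was smaller than those of miR-1948 in IR against Sham, the highest being 1.38. The pair was chosen for the high level of its 3p arm in IR, so this difference describes the choice.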

How the data were processed

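Small RNA of liver was sequenced in 3 libraries, 1 per group. The authors trimmed adaptors, kept reads by length and aligned them with Bowtie 0.12.7 (the methods name mm9, the labels mm10), classed alignments with HTSeq and deposited raw read counts per mature microRNA from miRDeep2. Reads fitting several loci may be counted under several names.

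Counts were scaled by TMM factors (edgeR 4.0.16, R 4.3.3). Log2 fold changes used log2(CPM + 0.1), which understates changes of rare microRNAs, and folds used no pseudocount. Intervals of folds were exact conditional binomial, those of levels exact Poisson and those of shares Wilson (scipy 1.17.1). Calls, over microRNAs with at least 1 read in either library, followed the criteria of the study and were tested on simulated data. The quasi-likelihood test needs replicates and could not be fitted. The alternatives were other scalings (such as size factors of DESeq2 1.42.0), pseudocount, depth, limits and assumed variation.

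The members and lists were chosen with earlier results of these data known. Named are both arms, the 5 nearest in course to each, the 2 on either side of 4-fold in IR against Sham, the listed microRNAs and the hairpins next to miR-1948 in arm difference. Other names (miR-2137, miR-1195, miR-133a-3p among those past 4-fold, and miR-132 for its arms) were picked once their values were known.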

Additional observations from a re-analysis of the deposited data

How the results depend on the processing

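No paired analysis was possible because each group had 1 library, and leaving out replicates could not be done. Of 42 recomputed log2 fold changes of the arms, 39 stayed within the counting interval of the reported value. The 3 others came from genome-aligned totals, with 1.78 (3p, IR against WI), 1.96 (3p, IR against Sham) and 1.56 (5p, IR against WI). For the 3p arm in WI against Sham, values within the interval changed sign, down to -0.08 with library totals. The 3 shares of the 5p arm stayed within their intervals after thinning.

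Calls in WI against Sham, 15 with the main setting used here, numbered 25 with genome-aligned totals and 9 at a fold above 2. Those in IR against WI, 73 with the main setting, numbered 111 with genome-aligned totals. Those in IR against Sham, 55 with the main setting, numbered 35 at a fold above 2. With edgeR's exact test and an assumed coefficient of variation of 0.2 the 3 counts were 4, 33 and 24, and with 0.4 they were 1, 6 and 10. The other 17 of 27 recounts stayed within 1.5 times. With at least 5 reads of each arm, 78.8% of hairpins had a smaller arm difference than miR-1948 from Sham to WI and 56.2% from Sham to IR. MicroRNAs past 4-fold in IR against both others numbered 12 with at least 10 reads and 3 with genome-aligned totals. The cause was not tested.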
